A study of Mus musculus with 6 samples.

Results

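Colony-stimulating factors (CSFs) are the cytokines that keep macrophages and granulocytes alive, drive their division and set their state of activation. The 8 mouse genes of this family are the 3 ligand genes Csf1, Csf2 and Csf3, and the 5 receptor genes Csf1r, Csf2ra, Csf2rb, Csf2rb2 and Csf3r. They were taken by gene name from the deposited table of 54660 gene rows. All 8 were found, and all 8 passed the filter on low counts that left 13080 genes for testing. The 2 groups were bone marrow-derived macrophages from Xbp1M-KO mice (called KO) and from Xbp1FL/FL mice (called WT), with 3 libraries each. Both groups came from C57BL/6 mice of 6 to 8 weeks, and both were stimulated for 6 h with lipopolysaccharide (LPS), a component of the outer membrane of Gram-negative bacteria, so no unstimulated level is described. Xbp1, the gene that is knocked out, encodes a factor that drives transcription in the unfolded protein response. No source used here names the promoter behind the knockout, the growth factor in which the macrophages were grown, or whether the 3 libraries per genotype stem from different animals. The p-values thus cover only library-to-library spread, and that spread may be technical. The RNA was taken from whole cultures, so fewer cells of a type and less RNA per cell cannot be told apart.

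CSF1 (M-CSF) signals through CSF1R, a receptor tyrosine kinase that macrophages need for survival. CSF2 (GM-CSF) binds a specific alpha chain, encoded by Csf2ra, which pairs with the common beta chain encoded by Csf2rb and signals through JAK2 and STAT5. Mice have in addition Csf2rb2, whose product serves as a beta chain for interleukin-3. CSF3 (G-CSF) acts through CSF3R, best known on neutrophils and their precursors, and signals mainly through STAT3. LPS is a known inducer of Csf2 and Csf3 in macrophages.

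Libraries held between 31976748 and 42448058 counts. Xbp1 had 66.2, 65.5 and 65.6 CPM (read counts brought to a common library size by the TMM method) in KO replicates 1 to 3, against 91.1, 88.2 and 87.4 CPM in WT replicates 1 to 3. It was lower in each KO library (log2 fold change -0.44, SE 0.0363, adjusted p = 2.38e-08 in edgeR), and since no source used here names the deleted exon, the gene count checks the labels only in part. Macrophage markers summed to between 19278.7 and 19976.6 CPM in KO libraries and between 36908.9 and 38404.4 CPM in WT libraries. Most of that sum was Lyz2, at 11509.0 CPM in KO and 29815.6 CPM in WT. Adgre1, which encodes F4/80, went the other way, at 1726.0 CPM in KO and 1231.2 CPM in WT. Not all of these markers were abundant: Mertk was at 6.48 CPM in KO and 6.44 CPM in WT. Of the 9 listed, 5 were called higher and 3 lower in KO. Markers of lymphoid cells summed to between 0.164 and 0.331 CPM in KO libraries and between 0.128 and 0.151 CPM in WT libraries.

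The ligand and the receptor genes moved in opposite directions. All 3 ligand genes fell in KO and all 5 receptor genes rose, by edgeR's quasi-likelihood test at an adjusted p under 0.05 over all 13080 genes. Csf2 passed the filter only through its WT libraries, where it is high. Its call and its separation thus add nothing to this count or to later counts of members. In each of the 8 genes the KO and WT libraries did not overlap. Calls were frequent in this comparison: 61.3% of tested genes were called, 31.5% as higher and 29.8% as lower in KO, and the libraries of the 2 genotypes did not overlap for 65.9% of tested genes, with KO higher in 33.6% and lower in 32.3%. The share of members called is read against these values, and the split by role is given as a description. Larger absolute changes than that of the member were found in 5.56% of tested genes for Csf3, 10.4% for Csf2rb, 12.9% for Csf1, 16.2% for Csf3r, 17.9% for Csf2ra, 17.9% for Csf2rb2 and 29.8% for Csf1r. Csf2 is left out of this order, since it passed the filter only through its WT libraries.

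**Figure D1:**
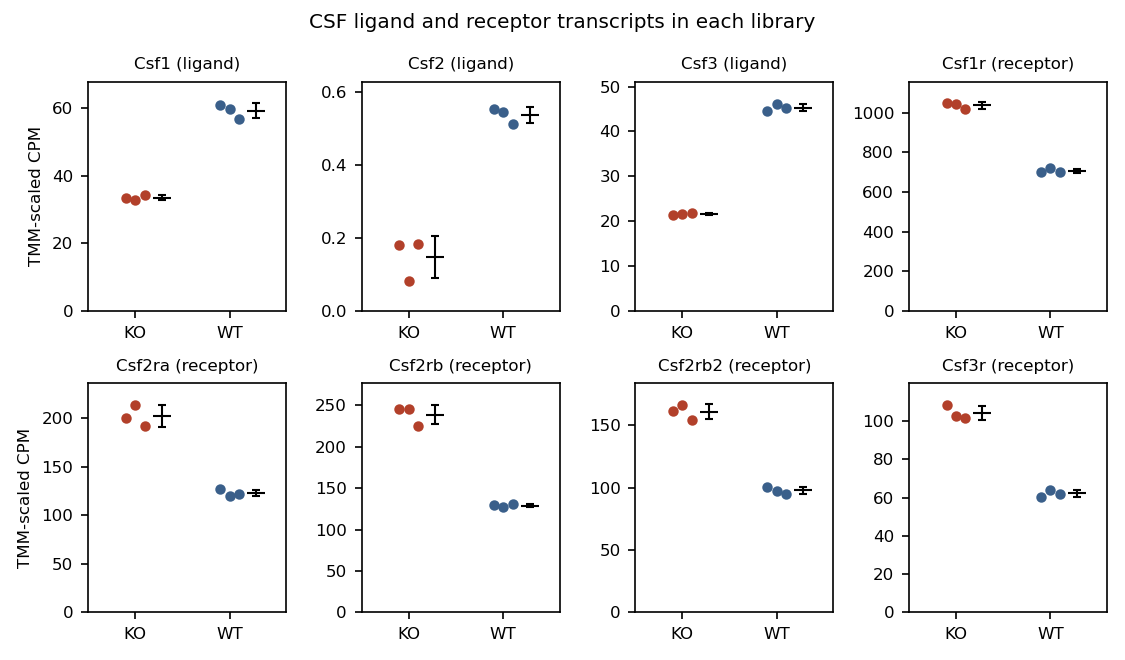
TMM-scaled CPM of the 8 genes in each KO and WT library (points), with the mean and SD of each genotype beside them (n = 3 each); each panel has its own axis from 0. In Csf1, Csf2 and Csf3 each KO point lies below the WT points, and in the 5 receptor panels each KO point lies above them.

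Csf3 (ENSMUSG00000038067, chromosome 11, 98701263 to 98703629, plus strand of mm10) encodes the granulocyte growth factor G-CSF. It had 21.4, 21.7 and 21.8 CPM in KO replicates 1 to 3, against 44.6, 46.1 and 45.2 CPM in WT replicates 1 to 3. The KO libraries sat close together and below each WT library, with means of 21.6 ± 0.223 CPM in KO and 45.3 ± 0.797 CPM in WT (SD, n = 3 each). Its change was -1.07 on the log2 scale (SE 0.0465, adjusted p = 1.13e-11 in edgeR), so the KO mean was 0.477 times the WT mean. None of the 50-base windows of its longest transcript occurs in a transcript of another gene.

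Csf1 (ENSMUSG00000014599, chromosome 3, 107741048 to 107760469, minus strand) encodes M-CSF, the ligand of CSF1R. It had 33.5, 32.9 and 34.2 CPM in KO replicates 1 to 3, against 61.0, 59.9 and 56.7 CPM in WT replicates 1 to 3. The WT libraries spread more than the KO libraries, and the groups stayed apart, with means of 33.6 ± 0.642 CPM in KO and 59.2 ± 2.24 CPM in WT (SD, n = 3 each). This was a log2 fold change of -0.82 (SE 0.0435, adjusted p = 1.10e-10 in edgeR), a ratio of 0.567. Markers of stromal cells, which also make CSF1, were lower beside it: their summed level was between 241.1 and 249.6 CPM in KO libraries and between 467.9 and 482.4 CPM in WT libraries. Most of that sum was Acta2, a smooth muscle actin, while Lum, which encodes the matrix proteoglycan lumican, had at most 6 counts in any library. The part of stromal transcripts in the change of Csf1 was not tested.

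Csf2 (ENSMUSG00000018916, chromosome 11, 54247271 to 54249667, minus strand) encodes GM-CSF and was near the limit of detection. It had 6, 3 and 8 counts in KO replicates 1 to 3, against 20, 18 and 16 counts in WT replicates 1 to 3. Each KO library was below each WT library, and the means were 0.148 ± 0.0572 CPM in KO and 0.536 ± 0.0215 CPM in WT (SD, n = 3 each). Over the libraries of a genotype the sums were 17 counts in KO and 54 counts in WT, a ratio of 0.278 KO over WT with an exact 95% interval of 0.151 to 0.487 that covers counting error only. The log2 fold change of -1.82 (SE 0.421, adjusted p = 0.00127 in edgeR) had the largest SE of the 8 members. Passing the filter only through WT libraries favours a fall among genes at this level. Gm12223, an antisense gene that overlaps Csf2, had 0 counts in each library.

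RefSeq promoter windows on GRCm38.p6 were given for 5 of the 8 genes. The 250 bases before the RefSeq start site of Csf1 and Csf2 are shown because both ligand genes fell. They span chr3:107760470-107760719 and chr11:54249900-54250149, both on the minus strand, and are written 5′ to 3′ in the sense of the gene. On this strand the Csf2 window stops at 54249900, while the gene span of the deposited table begins at 54249667. The bases between them were not searched. Capitals mark letters that match a searched motif on either strand: GGG and CC with any 5 bases between them (NF-kB sites), TTGCNNAA (C/EBP sites), GAGGAAG (PU.1 sites), ACGTG (the core of XBP1 sites) and CCACG (part of the endoplasmic reticulum stress element).
Csf1: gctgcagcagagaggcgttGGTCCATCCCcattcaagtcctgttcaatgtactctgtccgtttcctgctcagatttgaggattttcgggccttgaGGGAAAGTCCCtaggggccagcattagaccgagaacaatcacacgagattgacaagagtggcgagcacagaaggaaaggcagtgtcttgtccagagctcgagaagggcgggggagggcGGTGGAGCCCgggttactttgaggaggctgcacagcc
Csf2: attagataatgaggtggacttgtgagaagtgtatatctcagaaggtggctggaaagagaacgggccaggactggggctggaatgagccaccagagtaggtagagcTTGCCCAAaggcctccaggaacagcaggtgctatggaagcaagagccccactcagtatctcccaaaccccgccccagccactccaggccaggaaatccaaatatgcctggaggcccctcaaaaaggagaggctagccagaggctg
The Csf1 window held 4 matches to the NF-kB letters, of which 2 overlap, and no match to the other motifs. The Csf2 window held 1 match, to TTGCNNAA. Among 32851 promoter windows of the same length, 45.8% hold the NF-kB letters, 9.56% TTGCNNAA, 10.6% GAGGAAG, 16.6% ACGTG and 28.3% CCACG. A match describes letters and is no evidence of binding.

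Csf1r (ENSMUSG00000024621, chromosome 18, 61105572 to 61132149, plus strand) encodes the M-CSF receptor and was the most abundant of the 8. It had 1050.1, 1044.7 and 1018.7 CPM in KO replicates 1 to 3, against 700.5, 720.2 and 703.5 CPM in WT replicates 1 to 3. The 2 genotypes lay far apart compared with their spread, with means of 1037.8 ± 16.8 CPM in KO and 708.0 ± 10.6 CPM in WT (SD, n = 3 each). On the log2 scale the rise was 0.55 (SE 0.0269, adjusted p = 4.06e-11 in edgeR), a ratio of 1.47. It was 0.16 (adjusted p = 1.16e-05 in edgeR) once a trend of all genes with GC content and length, described further on, was removed. The last 871 bases of the gene span overlap Hmgxb3 on the opposite strand, and 17.7% of the 50-base windows of the longest Csf1r transcript occur there too. No source used here says whether the counting used strand. Hmgxb3 had at most 2.03% of the Csf1r level in any library.

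The alpha chain gene and both beta chain genes of the GM-CSF and interleukin-3 receptors rose together. Csf2ra (ENSMUSG00000059326, chromosome 19, 61224402 to 61228418, minus strand), the GM-CSF-specific alpha chain gene, had 200.1, 213.8 and 191.5 CPM in KO replicates 1 to 3, against 126.7, 119.9 and 122.1 CPM in WT replicates 1 to 3. All KO libraries exceeded all WT libraries, and the means were 201.8 ± 11.3 CPM in KO and 122.9 ± 3.51 CPM in WT (SD, n = 3 each). The rise was 0.72 on the log2 scale (SE 0.0416, adjusted p = 3.15e-10 in edgeR), and 0.53 without the trend.

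Csf2rb (ENSMUSG00000071713, chromosome 15, 78325752 to 78353847, plus strand), the common beta chain gene, had 245.9, 245.1 and 225.5 CPM in KO replicates 1 to 3, against 129.6, 127.3 and 130.4 CPM in WT replicates 1 to 3. The KO mean was 1.85 times the WT mean, with a log2 fold change of 0.89 (SE 0.0384, adjusted p = 1.04e-11 in edgeR). The value without the trend was 0.50 (adjusted p = 1.62e-09 in edgeR). Csf2rb2 (ENSMUSG00000071714, chromosome 15, 78282507 to 78305721, minus strand), its interleukin-3 counterpart, had 161.4, 166.2 and 154.5 CPM in KO replicates 1 to 3, against 100.8, 97.6 and 95 CPM in WT replicates 1 to 3. On the log2 scale Csf2rb2 rose by 0.72 (SE 0.0383, adjusted p = 1.20e-10 in edgeR), and by 0.35 (adjusted p = 6.94e-08 in edgeR) without the trend.

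The 2 beta chain genes lie side by side in opposite orientations, with 20030 bases between them, and their transcripts are similar enough that reads may be split between them. The longest transcripts, of 4900 and 4740 bases for Csf2rb and Csf2rb2, were 91.7% identical over 4617 aligned bases in GENCODE vM21. Of the 50-base windows of Csf2rb, 18.4% also occur in Csf2rb2, and 19.0% of those of Csf2rb2 occur in Csf2rb. With the counts of both genes added, the level was 407.3, 411.2 and 380.0 CPM in KO replicates 1 to 3, against 230.4, 224.9 and 225.4 CPM in WT replicates 1 to 3. The summed log2 fold change was 0.82 (SE 0.0351, adjusted p = 9.77e-12 in edgeR), a value that does not depend on how reads were split between the 2 genes. It was 0.44 without the trend.

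Csf3r (ENSMUSG00000028859, chromosome 4, 126024550 to 126044440, plus strand), the G-CSF receptor gene, had 108.7, 102.7 and 101.5 CPM in KO replicates 1 to 3, against 60.6, 63.9 and 62.1 CPM in WT replicates 1 to 3. The groups did not overlap, with means of 104.3 ± 3.89 CPM in KO and 62.2 ± 1.67 CPM in WT (SD, n = 3 each). The change on the log2 scale was 0.75 (SE 0.0398, adjusted p = 1.15e-10 in edgeR), and 0.45 (adjusted p = 1.52e-08 in edgeR) without the trend. Of the 50-base windows of its longest transcript, 11.5% occur in transcripts of other genes, 402 in number. Neutrophil markers were higher beside it. Their summed level was between 669.0 and 699.3 CPM in KO libraries and between 456.1 and 483.9 CPM in WT libraries, and the most abundant of them was Lcn2, which encodes lipocalin-2, at 360.1 CPM in KO and 228.9 CPM in WT. Of the 10 tested markers 9 were called higher and 1, Mmp8, lower, beside 31.5% and 29.8% of all tested genes. Without the trend 8 were called higher and 1 lower, beside 27% and 27.7% of all tested genes. Elane and Prtn3, among the 9, passed the filter only through the KO libraries, where they are high, so their calls add nothing to either count. Of the 15 listed, Ly6g, Mpo, Ctsg, Cxcr2 and Retnlg had at most 12 counts in any library and were not tested. The part of neutrophil-lineage transcripts in the rise of Csf3r was not tested.

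The RefSeq promoter windows of 2 receptor genes are shown because these genes rose together. Those of Csf1r, Csf2rb and Csf3 are not shown, and that of Csf3r (chr4:126024409-126024658, plus strand) was searched but is not printed, since it runs into the gene span of the deposited table. The windows shown span chr19:61228419-61228668 and chr15:78305722-78305971, both on the minus strand, 250 bases before each start site. Capitals mark matches to the same 5 motifs.
Csf2ra: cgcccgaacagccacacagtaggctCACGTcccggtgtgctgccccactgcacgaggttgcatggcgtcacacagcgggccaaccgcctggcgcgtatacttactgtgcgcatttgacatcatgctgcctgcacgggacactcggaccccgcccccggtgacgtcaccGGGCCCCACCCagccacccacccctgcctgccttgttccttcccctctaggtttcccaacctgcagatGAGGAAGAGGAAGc
Csf2rb2: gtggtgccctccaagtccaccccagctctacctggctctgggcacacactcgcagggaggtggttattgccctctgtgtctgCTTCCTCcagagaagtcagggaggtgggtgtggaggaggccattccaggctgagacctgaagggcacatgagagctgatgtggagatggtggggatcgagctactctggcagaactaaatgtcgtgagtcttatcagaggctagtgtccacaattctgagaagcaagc
The windows of Csf2ra, Csf2rb2 and Csf3r each held GAGGAAG on either strand, the letters of PU.1 sites, where 10.6% of all windows hold it. Csf2ra held 2 such matches that share a base, and also 2 overlapping matches to the NF-kB letters, of which Csf3r held 1. The windows of the 2 ligand genes did not hold it. ACGTG occurred in the Csf2ra window and CCACG in the Csf3r window. The number of windows is too small for a statement about either group of genes.

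**Figure D2:**
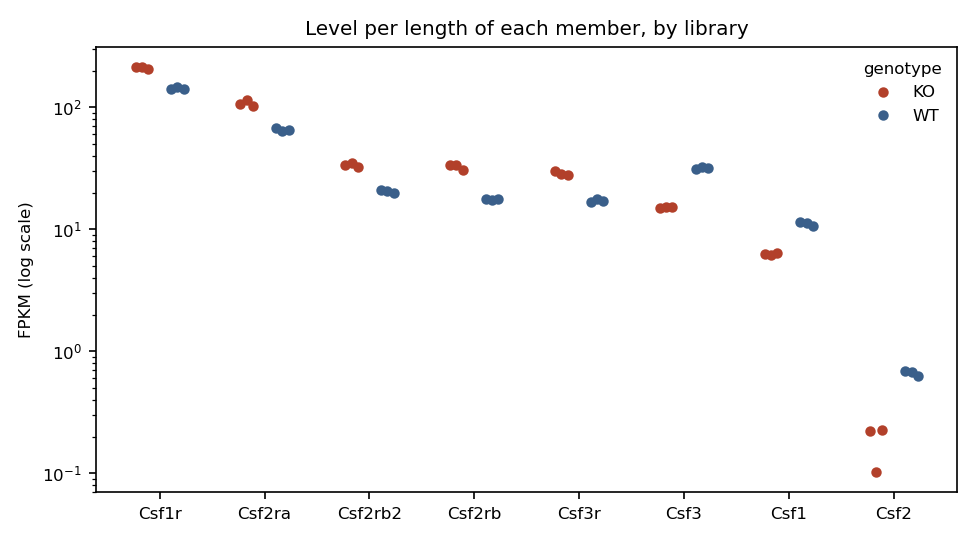
FPKM of each gene on a log axis, with 1 point per library and KO left of WT, ordered by the KO mean. Csf1r and Csf2ra lie highest in both genotypes, and Csf3 lies above the beta chain genes and Csf3r in WT but below them in KO.

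Levels of different genes were compared with the deposited FPKM values, which divide by gene length. In KO the order was Csf1r at 211.3 ± 3.24 FPKM, Csf2ra at 108.5 ± 5.99, Csf2rb2 at 33.7 ± 1.21, Csf2rb at 32.6 ± 1.55, Csf3r at 28.7 ± 1.05, Csf3 at 15.2 ± 0.166, Csf1 at 6.32 ± 0.125 and Csf2 at 0.184 ± 0.0711 FPKM (SD, n = 3 each). The ranges of neighbours overlapped in KO for Csf2rb2 and Csf2rb and for no other pair. In WT the means were 143.9 ± 2.55 FPKM for Csf1r, 66.0 ± 1.80 for Csf2ra, 31.8 ± 0.634 for Csf3, 20.5 ± 0.628 for Csf2rb2, 17.6 ± 0.168 for Csf2rb, 17.1 ± 0.498 for Csf3r, 11.1 ± 0.442 for Csf1 and 0.665 ± 0.0279 for Csf2 (SD, n = 3 each). Csf2rb and Csf3r were the overlapping neighbours in WT. The order of the 2 beta chain genes rests on the length used: the deposited table divides Csf2rb by 7277 bases, where its longest transcript has 4900, and Csf2rb2 by 4740. Per kilobase of longest transcript, a length chosen after the values were seen, Csf2rb was at 48.7 CPM in KO and 26.4 CPM in WT, and Csf2rb2 was at 33.9 CPM in KO and 20.6 CPM in WT. Csf3 was thus 6th of the 8 in KO and 3rd in WT, and its FPKM was 0.530 times that of its receptor gene Csf3r in KO and 1.86 times in WT.

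The ratio of Csf1 to its receptor gene Csf1r was 0.0295, 0.0292 and 0.0311 in KO replicates 1 to 3, against 0.0805, 0.0770 and 0.0745 in WT replicates 1 to 3, on the FPKM scale. On the log2 scale this ratio was -5.06 ± 0.0483 in KO and -3.69 ± 0.0559 in WT, a difference of -1.37. The receptor subunits changed less relative to each other. The ratio of Csf2rb2 to Csf2rb was 1.01, 1.04 and 1.05 in KO replicates 1 to 3, against 1.19, 1.18 and 1.12 in WT replicates 1 to 3, a log2 difference of -0.17. The ratio of Csf2ra to Csf2rb was 3.20, 3.43 and 3.34 in KO replicates 1 to 3, against 3.85, 3.71 and 3.68 in WT replicates 1 to 3, also a log2 difference of -0.17. That difference turned to 0.04 with the GC and length trend removed, so its direction is not settled. On the FPKM scale KO and WT libraries did not overlap in any of these 3 ratios. For Csf1 over Csf1r this was fixed in advance, since Csf1 was lower and Csf1r higher in each KO library. The exact two-sided permutation test gave p = 0.1 for each ratio (Benjamini-Hochberg adjusted over the 3 ratios, 0.1). This is the smallest p that 3 against 3 libraries allow.

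**Figure D3:**
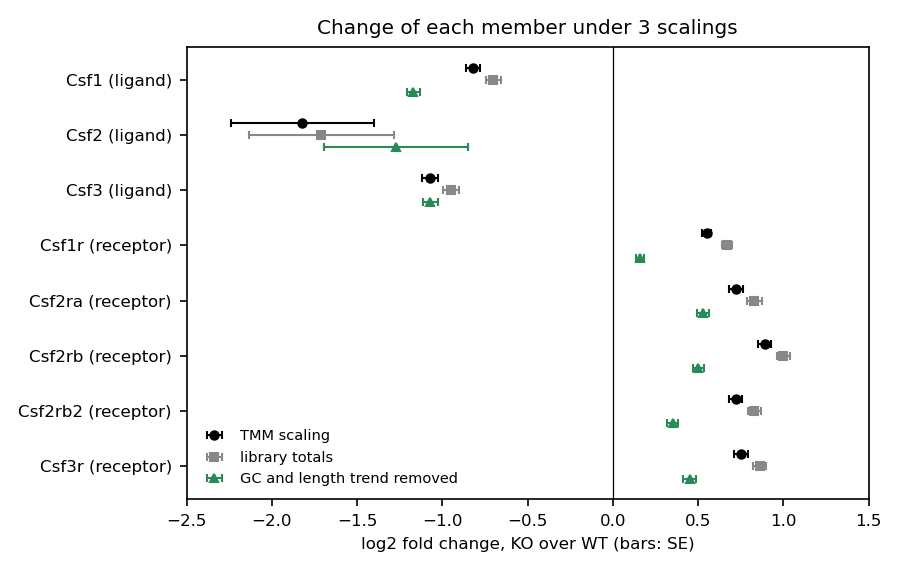
Log2 fold change, KO over WT, of each gene with its SE under TMM scaling, with library totals as the scaling, and after removal of the GC and length trend. The ligand genes stay left of 0 and the receptor genes right of 0 under all 3, and Csf1r comes nearest to 0, at 0.16.

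Log2 fold changes of all tested genes followed GC content and transcript length, with correlations across genes of 0.25 and 0.28, in which genes are not independent replicates. The 5 receptor transcripts had between 53.3% and 57.8% GC, and 4 of them were longer than the median tested transcript, of 3114 bases and 49.7% GC. At their GC content and length the trend amounted to 0.39 on the log2 scale for Csf1r, 0.39 for Csf2rb, 0.36 for Csf2rb2, 0.29 for Csf3r and 0.18 for Csf2ra. For the ligands it was 0.35 for Csf1, 0.01 for Csf3 and -0.57 for Csf2, whose transcript is the shortest, at 800 bases. With the trend removed the calls and directions of all 8 were kept, where 54.7% of tested genes were called, 27% as higher and 27.7% as lower in KO. Csf1 was then at -1.17 (adjusted p = 5.69e-13 in edgeR), Csf3 at -1.07 (adjusted p = 4.44e-12 in edgeR) and Csf2 at -1.27 (adjusted p = 0.0179 in edgeR). The rise of the receptor genes was 3.42 times as large with the trend as without it for Csf1r, 2.04 times for Csf2rb2, 1.79 times for Csf2rb and 1.64 times for Csf3r. Scaled by library totals, the median of all genes moved by 0.11, and 61.7% of tested genes were called, 39.1% as higher and 22.6% as lower in KO, so that 63.4% of calls were higher, against 51.3% under TMM scaling. The 8 members kept their directions and calls there.

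**Figure D4:**
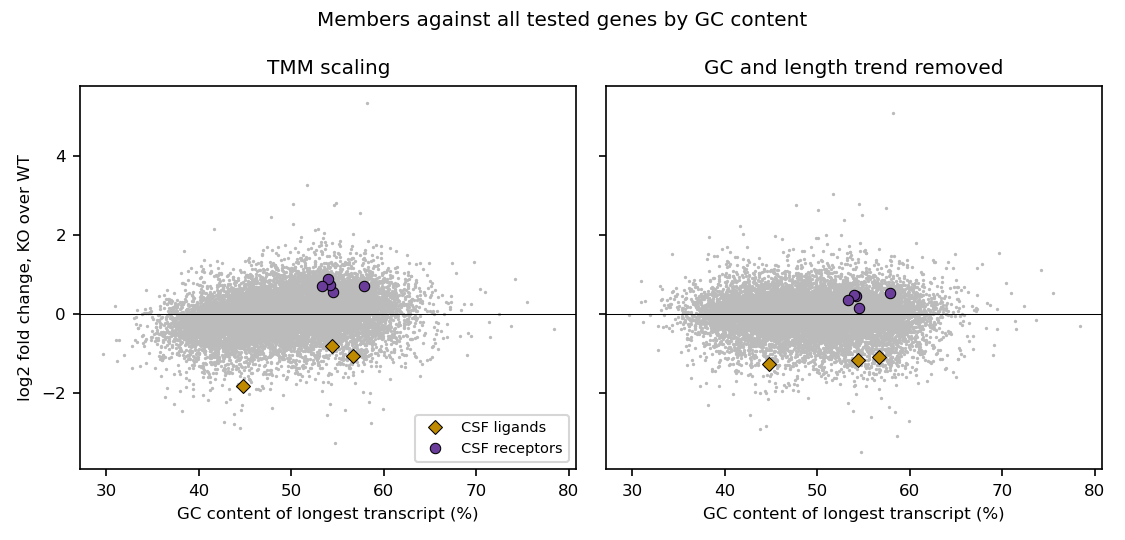
Log2 fold change, KO over WT, against GC content of the longest transcript for all tested genes (grey points), CSF ligand genes (diamonds) and CSF receptor genes (circles), before (left) and after (right) removal of the GC and length trend. The receptor genes lie at 53.3% to 57.8% GC and move towards 0 on the right, to between 0.16 and 0.53, while the ligand genes lie between -1.27 and -1.07 there.

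Other ligands and chains that use these receptors were scarce apart from one. Il3 and Il5, whose products act through the beta chains, had 0 counts in each library, and Il5ra had at most 2 counts. Il34, which encodes the second ligand of CSF1R, had 14, 6 and 15 counts in KO replicates 1 to 3, against 24, 25 and 21 counts in WT replicates 1 to 3. It fell by 1.17 on the log2 scale (SE 0.367, adjusted p = 0.0112 in edgeR), but was no longer called with KO replicate 2, its lowest library, left out (-0.87, adjusted p = 0.0663 in edgeR), and it too passed the filter only through WT. Il3ra, the interleukin-3 alpha chain gene, was at 89.4 ± 3.03 CPM in KO and 80.9 ± 2.37 CPM in WT (SD, n = 3 each). Its small rise of 0.14 (SE 0.0391, adjusted p = 0.00452 in edgeR) was lost without the trend, where the value was -0.04 (adjusted p = 0.397 in edgeR).

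Genes listed for CSF1R signalling rose more often than they fell. Of 23 members of this list 16 rose, 3 fell and 4 did not pass the test, with a median of 0.29 against -0.00 over all tested genes, of which 31.5% rose and 29.8% fell. Inpp5d, which encodes the inositol phosphatase SHIP1, rose to 88.2 ± 3.97 CPM in KO, against 47.0 ± 1.11 CPM in WT (log2 fold change 0.91, SE 0.0425, adjusted p = 2.66e-11 in edgeR). Fgr, a Src-family kinase gene, rose by 0.88 (SE 0.0522) and Plcg2, a phospholipase C gene, by 0.71 (SE 0.0393). After removal of the trend Inpp5d was at 0.52 and Plcg2 at 0.35, and the list had 11 that rose and 6 that fell, with a median of 0.10, where 27% of all tested genes rose and 27.7% fell. The kinase genes Src and Lyn fell, by 0.25 and 0.39, and so did Tyrobp, the adaptor gene of DAP12, by 0.32, named here because they are the members that fell. Without the trend Src was at -0.61, Lyn at -0.36 and Tyrobp at -0.07.

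The kinases, STATs and feedback genes of the GM-CSF and G-CSF receptors were higher on balance before the trend was removed and not after. Of 12 members 8 rose and 2 fell, with a median of 0.24, but 5 rose and 6 fell after its removal, with a median of -0.13, against 31.5% and 29.8% of all tested genes before and 27% and 27.7% after. Sh2b3, which encodes the adaptor LNK, an inhibitor of JAK2 signalling, was at 53.9 ± 1.92 CPM in KO and 30.0 ± 0.896 CPM in WT (log2 fold change 0.85, SE 0.0457, and 0.46 without the trend). Ptpn11, the gene of the phosphatase SHP2, rose by 0.68 (SE 0.0428), and by 0.30 without the trend. Socs2, a STAT5-induced inhibitor, was at 1.22 ± 0.200 CPM in KO and 1.93 ± 0.417 CPM in WT (log2 fold change -0.66, adjusted p = 0.0155 in edgeR). It was no longer called with KO replicate 1 left out (-0.55, adjusted p = 0.0646 in edgeR) or with WT replicate 1 left out (-0.46, adjusted p = 0.109 in edgeR), nor in DESeq2 (-0.65, adjusted p = 0.0501).

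Genes known to respond to GM-CSF showed no common direction. Of the 10 listed 9 were tested, of which 2 rose, 3 fell and 4 did not pass, with a median of 0.02, and 1 rose and 5 fell without the trend, beside the same shares of all tested genes. Ccl17, a chemokine gene, fell to 0.735 ± 0.287 CPM in KO, against 2.16 ± 0.302 CPM in WT (log2 fold change -1.56, SE 0.255, adjusted p = 5.24e-05 in edgeR). Bhlhe40, a transcription factor gene, rose by 0.68 (SE 0.0852). Itgax, the gene of CD11c, was at 0.55 (SE 0.135, adjusted p = 0.00206 in edgeR), a call lost without the trend (0.29, adjusted p = 0.0736 in edgeR). Cish, a STAT5-induced inhibitor gene, was at 0.732 CPM in KO and 0.636 CPM in WT (log2 fold change 0.21, SE 0.306, adjusted p = 0.577 in edgeR).

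Transcription factors known to act on myeloid CSF receptor genes included 7 that rose and 2 that fell of 12, with a median of 0.19, and 6 that rose and 3 that fell without the trend. Over all tested genes 31.5% rose and 29.8% fell, and 27% and 27.7% without the trend. Gfi1, whose product is a transcriptional repressor needed for neutrophil development, rose to 16.8 ± 0.716 CPM in KO, against 5.98 ± 0.412 CPM in WT (log2 fold change 1.49, SE 0.0782, adjusted p = 9.71e-11 in edgeR). Cebpa, a factor gene of granulocyte and macrophage precursors, rose by 0.67 (SE 0.0488). Spi1, which encodes PU.1, was at 2444.2 CPM in KO and 2576.2 CPM in WT (-0.22 without the trend), with overlapping libraries, and its change of -0.08 (SE 0.0307, adjusted p = 0.0419 in edgeR) became 0.04 with library totals as the scaling.

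Regulators of ligand transcription and mRNA decay moved both ways, 6 rising and 4 falling of 13, with a median of 0.08, and 5 rising and 6 falling without the trend. The share that fell before the trend was removed was close to the 29.8% of all tested genes that fell, while 31.5% of all tested genes rose. Without the trend 27% of all tested genes rose and 27.7% fell. Zfp36l2, which encodes a protein that binds AU-rich elements in mRNA and promotes decay, rose to 48.9 ± 2.70 CPM in KO, against 20.3 ± 2.12 CPM in WT (log2 fold change 1.27, SE 0.0655, adjusted p = 8.08e-11 in edgeR). Khsrp, another decay factor gene, rose by 0.78 (SE 0.0516), and by 0.42 without the trend. Zfp36l1 was at 0.69 (SE 0.118), with 56.9% of its 50-base windows found in transcripts of other genes. Zfp36, the gene of tristetraprolin, a decay factor for Csf2 mRNA, was at 115.4 CPM in KO and 166.2 CPM in WT (log2 fold change -0.53, SE 0.0381, adjusted p = 4.21e-09 in edgeR), and is named after its values were seen.

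**Figure D5:**
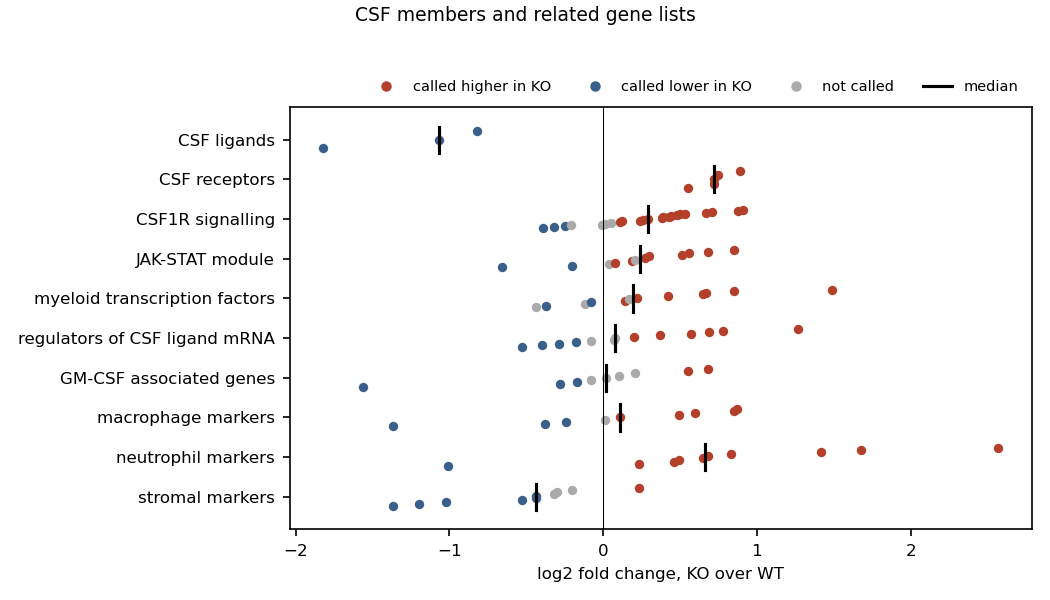
Log2 fold change, KO over WT, of each tested gene of the CSF family and of the lists with at least 5 tested genes, coloured by the call at an adjusted p under 0.05, with the median of each row as a black line. The receptor genes lie between 0.55 and 0.89 and the ligand genes between -1.82 and -0.82, while the rows of the signalling lists spread to both sides of 0.

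Among 6446 other genes that averaged at least 10 CPM, those whose log2 level over the 6 libraries followed a member most closely, each relative to its WT mean, were listed without regard to function. Lgals3, which encodes galectin-3, and Tpst1 differed from Csf1 by a root mean square of 0.0155 and 0.0199. Lpxn and Ifit3 were nearest to Csf3, at 0.0216 and 0.0290, and 51.2% of the 50-base windows of Ifit3 occur in Ifit3b, so reads may be split between them. For Csf1r they were 1700017B05Rik and Oas3, at 0.0138 and 0.0159. For Csf2ra they were Nagpa and Mllt6 (0.0312 and 0.0325), for Csf2rb Kdm4b and Son (0.0257 and 0.0296), for Csf2rb2 Zfp276 and Plcg2 (0.0178 and 0.0189), and for Csf3r Flna and Slc7a2 (0.0282 and 0.0307). The difference between the genotypes sets most of this likeness, since libraries within a genotype differ little. Likeness was taken before removal of the GC and length trend, and it held for only some pairs after it. Without the trend Mllt6 was at 0.18 and Csf2ra at 0.53 on the log2 scale, and Flna at 0.22 and Csf3r at 0.45. Plcg2 and Csf2rb2 were both at 0.35 there, and Oas3 and Csf1r both at 0.16.

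Among markers of other cells, Ltf, which encodes the granule protein lactoferrin, was at 11.1 ± 0.336 CPM in KO and 4.14 ± 0.0386 CPM in WT (log2 fold change 1.42, SE 0.0879). Elane and Prtn3, genes of neutrophil granule proteases, had low counts, with 12 to 27 and 14 to 28 counts in KO libraries, against 1 to 4 and 5 to 8 counts in WT libraries. Of 11 stromal markers 10 were tested, of which 6 fell and 1 rose, with Acta2 at -1.20 (SE 0.0319), Cxcl12 at -1.02 (SE 0.108) and Kitl, the gene of stem cell factor, at -1.37 (SE 0.365). Kitl passed the filter only through its WT libraries, so its call adds nothing to this count. The stromal marker that rose was Pdgfrb, at 0.23, and it was at -0.21 without the trend. Of 8 dendritic cell markers 3 were tested, of which 1 rose, 1 fell and 1 did not pass. Xcr1 was lower by 0.96 on the log2 scale (SE 0.150), and Ccr7 was at 0.38 (SE 0.147, adjusted p = 0.0336 in edgeR), with overlapping libraries and a call lost without the trend (0.30, adjusted p = 0.0940 in edgeR). Of 5 mast cell and basophil markers 2 were tested, of which 1 fell, Mcpt8, at -1.24 (SE 0.262), and 1 did not pass. Macrophage markers had 5 that rose and 3 that fell of 9, among them Cx3cr1 at 0.87 (SE 0.125) and Lyz2 at -1.37 (SE 0.0229). These marker counts are read beside the 31.5% of all tested genes that rose and the 29.8% that fell.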

How the data were processed

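The authors deposited 1 table with whole-number read counts per gene, not normalized, and FPKM values, per the file headers. The deposited signal columns (mean normalized counts per genotype), log2 fold changes, p-values and adjusted p-values of the authors were not used in any test. Per the submitters' processing notes, Bowtie 0.12.2 was used, and mm8 and mm10 are both listed. In the table, 98.3% of 54495 Ensembl identifiers have the position of GENCODE vM21 on mm10 (6 of the 8 members; Csf1r and Csf2ra differ). No source used here names the counter, its strand setting or the read length. The 128 rows without a gene name held 0.0427% to 0.0502% of counts and were kept.

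Counts were tested with edgeR 4.0.16 in R 4.3.3 (quasi-likelihood test, TMM scaling, default expression filter, genotype as the term, all 6 libraries), with Benjamini-Hochberg adjustment over 13080 genes. The pipeline was tested on simulated data. Each SE was taken from the fold change and the F statistic, as its size over the root of F. CPM are TMM-scaled. Without that scaling 3 counts equal 0.0707 to 0.0938 CPM at these depths. Pairs of libraries of a genotype differed by a chi-square per degree of freedom of 2.66 to 5.91, so none was treated as a duplicate. Alternatives were RLE scaling, library totals, no filter, DESeq2 1.42.0, each library left out, a replicate block, and an offset from smooth terms (mgcv 1.9.3) of GC content and length of the longest transcript, which 99.2% of tested genes have.

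The members and the 12 gene lists (129 genes) were chosen with earlier results of these data known. Named genes are the members, Xbp1, up to 3 called genes with the largest change and separated libraries per list, and the 2 genes nearest to each member above 1 CPM. A gene that this rule names is not reported here. Others are named to check a label, to complete a count, or after their values were seen: Adgre1, Hmgxb3, Gm12223, Src, Lyn, Tyrobp, Cish, Spi1, Zfp36, Lcn2, Mmp8, Pdgfrb, Ccr7 and markers at the limit of detection.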

Additional observations from a re-analysis of the deposited data

How the results depend on the processing

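All 8 members kept their direction and their call under each of 13 alternatives. The share of all tested genes that did so was not counted, so this describes the members only. Csf2 is not counted as support, since it passed the filter only through its WT libraries. The log2 fold change ranged over them from -1.17 to -0.70 for Csf1, -2.02 to -1.27 for Csf2, -1.08 to -0.95 for Csf3, 0.16 to 0.67 for Csf1r, 0.53 to 0.83 for Csf2ra, 0.50 to 1.00 for Csf2rb, 0.35 to 0.83 for Csf2rb2 and 0.45 to 0.86 for Csf3r, and from 0.44 to 0.93 for the summed beta chain genes. The lower ends for the receptors came from removal of the GC and length trend. Leaving out 1 library gave 0.54 to 0.57 for Csf1r and -2.02 to -1.54 for Csf2. Genes called higher numbered between 3504 and 5120 and genes called lower between 2955 and 3962. With the replicate number as a block the values of Csf1r and Csf2 were 0.55 and -1.83, and same-numbered libraries did not deviate together (correlations of -0.0368, 0.0355 and 0.0362), so the numbers give no pairing.

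Counts of called list members moved by over 1.5 times with the GC and length trend removed. The other CSF receptor ligands and chains then had 0 of 2 tested genes that rose. The CSF1R list had 6 of 23 that fell, and the JAK-STAT list had 5 of 12 that rose and 6 that fell. In the GM-CSF list 1 of 9 tested genes rose and 5 fell. Stromal markers then had 0 of 10 tested that rose, and dendritic cell markers 0 of 3 that rose and 2 that fell. Over all tested genes 27% rose and 27.7% fell in this setting, and the CSF1R share that fell was close to that. With library totals 1 of 12 myeloid transcription factors fell, beside 22.6% of all tested genes. The cause was not tested. As alternatives chosen after seeing the data, the log2 ratio of Csf2ra to Csf2rb, KO minus WT, was 0.04 with the trend removed, and by longest transcript the log2 level of Csf2rb2 over Csf2rb was -0.52 in KO and -0.35 in WT. Depth limits Csf2 and Il34, which had at most 25 counts in any library.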
